A study of Mus musculus with 8 samples.

Results

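Cyclic nucleotide phosphodiesterases were examined in mouse striatum at 10 genes, namely Pde1a, Pde1b, Pde1c, Pde2a, Pde4b, Pde4d, Pde7a, Pde7b, Pde8b and Pde10a. They were read by every non-control array probe that carries 1 of these symbols in the scanner files or in the deposited result table, which gave 24 probes of 55681 in all. The 10 genes are set among 17822 genes with a tested probe. Of the 24, 23 were well above background on all 8 arrays and were tested, while 1 probe of Pde10a was above background on none.

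Striatal RNA from 4 R6/2 samples was compared with that from 4 WT samples, all from males aged 4 weeks. R6/2 mice serve as a model of Huntington's disease: their transgene is a piece of the human huntingtin gene that spans the promoter and the first exon, in which the CAG repeat is expanded. The WT samples are described in the labels as controls, with no word on whether they were littermates. Each sample was labelled with Cy3 and measured on its own Agilent 1-colour array. Whether every sample is its own animal is not said in the labels, and the p-values therefore cover the spread among these samples alone, part of which may be technical. All 8 arrays lay on 1 slide, the R6/2 arrays in slide column 2 and the WT arrays in slide column 1, so genotype and slide column cannot be told apart. Slide column and slide row are names given here to the position numbers that end each array's barcode. The barcode itself does not say which number is which.

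Phosphodiesterases end a cyclic nucleotide signal by hydrolysing cAMP, cGMP or both. In the spiny projection neurons of the striatum, dopamine raises cAMP through D1 receptors and lowers it through D2 receptors, and nitric oxide raises cGMP. Pde10a, a dual-substrate enzyme, is known for its high level in these neurons, and Pde1b, which calcium and calmodulin activate, is also abundant there. The Pde4, Pde7 and Pde8 enzymes are specific for cAMP, and Pde2a hydrolyses both nucleotides and is stimulated by cGMP.

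The share of probes well above background was 61.5% to 67.7% per array, and 0 spots were saturated. Signals below are scaled signals, the processed spot intensity set to a common 75th percentile on every array. They compare arrays at 1 probe and do not rank different probes.

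A few member probes are shown, for Pde10a, Pde4b and Pde4d, because a forward frame of theirs holds no stop codon over most of the probe and then meets one. Each is printed 5′ to 3′, with the stop codon of the longest forward frame that closes within the probe in capitals. The files give no coding annotation for probes, so the frame was read from the letters alone and is not known to be the coding one.
Pde10a A_55_P2090484 (mm9, chr17:9174477-9174536, + strand): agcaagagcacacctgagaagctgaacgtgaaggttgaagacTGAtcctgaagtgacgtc
Pde4b A_52_P423247 (mm9, chr4:102277888-102277947, + strand): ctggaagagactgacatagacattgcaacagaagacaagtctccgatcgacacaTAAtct
Pde4d A_55_P2010396 (mm9, chr13:110741493-110741552, + strand): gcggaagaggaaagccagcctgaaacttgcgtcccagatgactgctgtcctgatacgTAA
In the Pde10a probe 14 open codons precede the stop and 15 bases follow it. The Pde4b probe has 18 open codons before its stop, and the Pde4d probe has 19, while a second of its frames holds no stop codon at all.

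Transcripts of Pde10a and Pde1b, and Pde7b at the dimmer of its 2 probes, were called lower in R6/2 striatum. No probe of the 10 genes was called higher. The calls did not hold once slide rows were taken as a block. By limma, with p adjusted over all 35121 tested probes, 4 of the 23 member probes were called at an adjusted p under 0.05. All 4 were lower, which is 17.4% of the member probes tested, against 1.14% of all tested probes called lower and 1.51% called in either direction. The 4 were both tested probes of Pde10a, which start 518 bases apart, the only probe of Pde1b and 1 of the 2 probes of Pde7b. In 5 member probes all R6/2 arrays lay below all WT arrays, which is 21.7% of them, against 6.19% of all tested probes. Of the 23 log2 differences (R6/2 minus WT), 17 were negative and 6 positive, with a median of -0.13, against 0.01 for all tested probes, and 7 had an unadjusted p under 0.05 (30.4%, against 17.0% of all tested probes). The 10 genes were chosen with earlier results of these data known, so these shares are a description and no test of the family. In bulk tissue, fewer cells of a type and less RNA per cell cannot be told apart.

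The replicate numbers of the 2 genotypes also mark shared slide rows, and with the number as a block 0 of the 4 calls remained. The adjusted p values with the block were 0.0649 and 0.0538 for the Pde10a probes, 0.0609 for Pde1b and 0.0702 for Pde7b. With an array left out in place of the block, the count of called member probes was 4 without WT 3, 2 without R6/2 1 or R6/2 4, 1 without WT 1 and 0 without R6/2 2, R6/2 3, WT 2 or WT 4. The differences themselves are the same with and without the block. In each of the 4 slide rows the R6/2 array was below the WT array at all 4 of these probes.

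**Figure D1:**
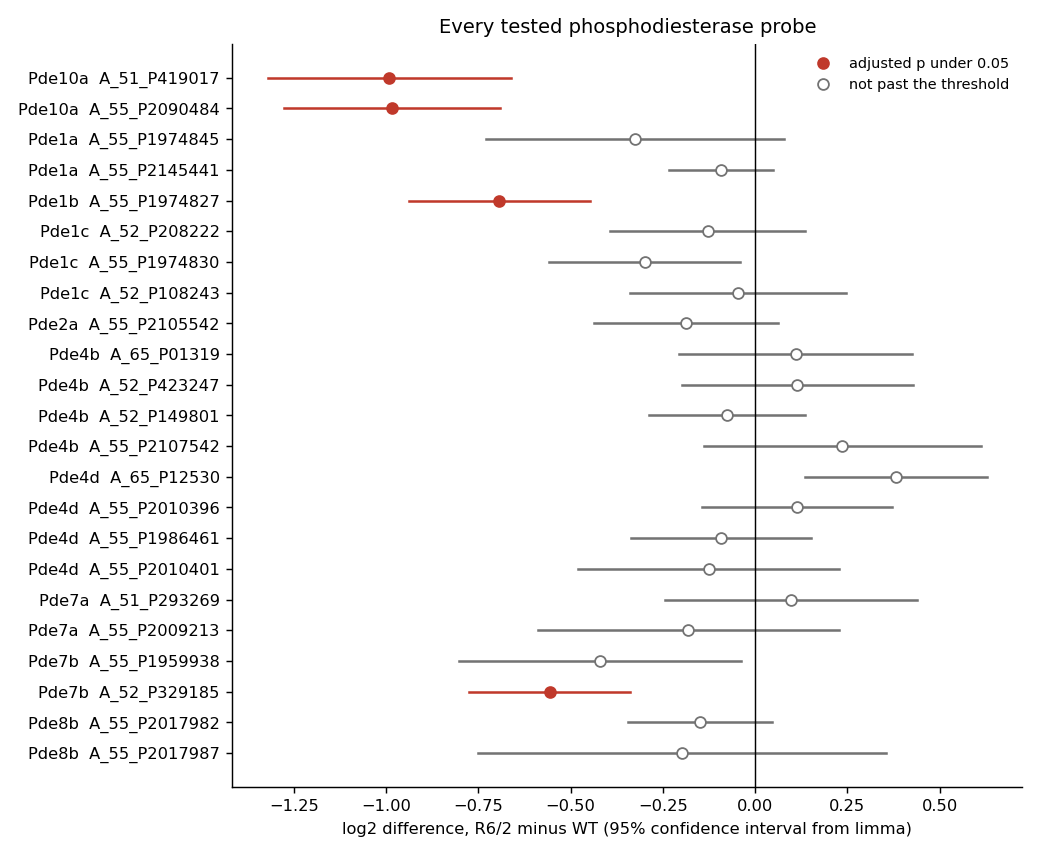
Log2 difference in signal, R6/2 minus WT, of each of the 23 tested probes, with its 95% confidence interval from limma (n = 4 arrays per genotype). Filled points have an adjusted p under 0.05 without the block: the Pde10a probes at -0.99 and -0.98, Pde1b at -0.69 and 1 Pde7b probe at -0.56.

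Pde10a was lower by about the same amount at both of its measured positions. Its brighter probe (A_51_P419017, mm9 chr17:9174995-9175054) had scaled signals of 14559, 12576, 12580.1 and 9573 in R6/2, against 23979, 26233, 20508 and 26676 in WT. The highest R6/2 array was below the lowest WT array. Its log2 difference was -0.99 ± 0.14 (SE, n = 4 per genotype; limma adjusted p = 0.0246), a signal 49.7% lower in R6/2.

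The probe printed above, which starts 518 bases before it, had 4104, 3949, 3921 and 3062 in R6/2, against 7160.2, 8618, 6353 and 7607 in WT. Again the genotypes did not overlap, and R6/2 4 stood apart as the lowest array. The difference was -0.98 ± 0.13 (SE, n = 4 per genotype; limma adjusted p = 0.0178), or 49.5% lower. By slide row, the difference at the brighter probe was -0.72, -1.06, -0.71 and -1.48 for numbers 1 to 4. The remaining Pde10a probe (A_55_P2000379), 4.40 kb beyond the start of the brighter one and with only 15% G and C, gave signals of 2.46 to 2.78 in R6/2 and 2.34 to 5.19 in WT, none well above background, and has no test. Leaving out an array ended the call of the brighter probe for R6/2 2 (adjusted p = 0.0816), R6/2 3 (0.0735), WT 1 (0.0663), WT 2 (0.0784) and WT 4 (0.0737). At the other probe it did so for R6/2 2 (0.0569), R6/2 3 (0.0541), WT 2 (0.0502) and WT 4 (0.0614). The difference stayed between -1.08 and -0.88 at both probes in all 8 of these fits.

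**Figure D2:**
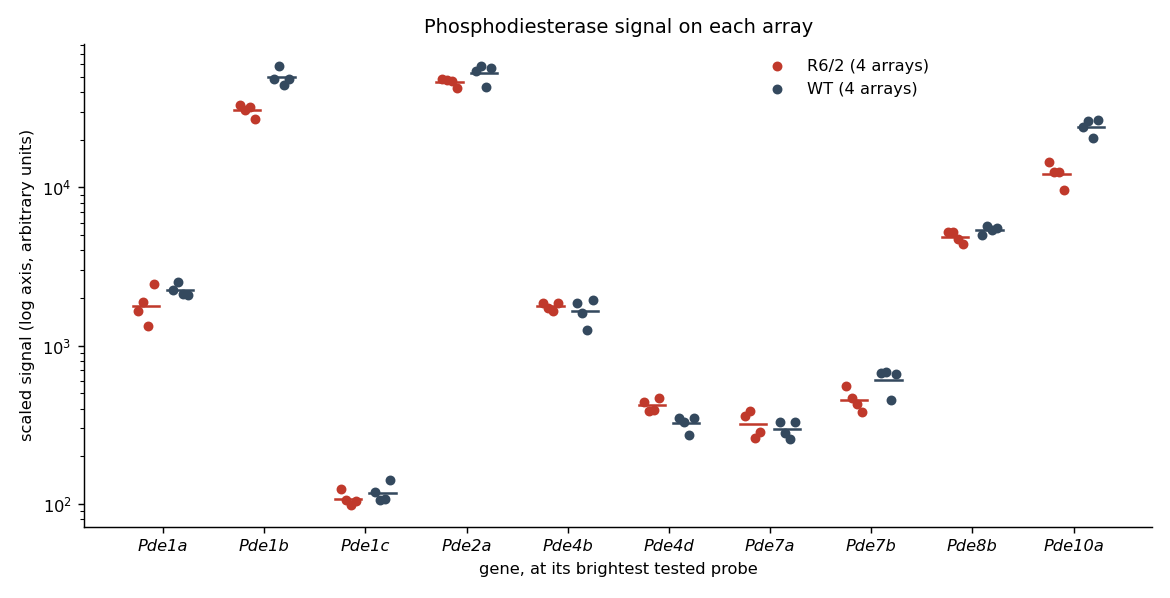
Scaled signal of each of the 10 genes at its brightest tested probe on the 4 R6/2 and 4 WT arrays (log axis, arbitrary units); points are arrays and lines are geometric means. For Pde10a and Pde1b every R6/2 array lies below every WT array, for Pde4d every R6/2 array lies above, and the other 7 genes overlap.

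The Pde1 enzymes are the phosphodiesterases that calcium and calmodulin activate, and of the 3 genes Pde1b was the only one called. Pde1b (A_55_P1974827, mm9 chr15:103360424-103360483) had 33138, 30859.5, 32171 and 27028 in R6/2, against 48479, 58585, 44438 and 48136 in WT. All R6/2 arrays lay below all WT arrays. Its log2 difference was -0.69 ± 0.11 (SE, n = 4 per genotype; limma adjusted p = 0.0288), a signal 38.1% lower in R6/2. The call of Pde1b held in 1 of the 8 fits with an array left out, that without WT 3 (adjusted p = 0.0340), and the other 7 gave 0.0566 (without R6/2 1) to 0.0911 (without R6/2 2), with differences from -0.75 to -0.61 over the 8.

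Pde1a, which prefers cGMP, was read by 2 probes that start 48.7 kb apart. The brighter (A_55_P1974845) had 1644, 1886, 1331 and 2447 in R6/2, against 2242, 2517, 2117 and 2085 in WT. R6/2 4 was above 3 of the WT arrays and the other R6/2 arrays were below all of them. The difference of -0.33 ± 0.18 was not called (SE, n = 4 per genotype; limma adjusted p = 0.394; 95% interval -0.73 to 0.08). The dimmer probe (A_55_P2145441) had 656, 715, 713 and 713 in R6/2, against 745, 750.3, 740.0 and 743 in WT, so that the genotypes did not overlap at a difference of only -0.09 (adjusted p = 0.499).

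Pde1c, which hydrolyses cAMP and cGMP alike, was read by 3 dim probes, with signals of 53.6 to 124 in R6/2 and 57.6 to 140.5 in WT. At its brightest probe (A_52_P208222) the difference was -0.13, and at A_52_P108243 it was -0.05, a sign that turned with quantile normalization and with median scaling. At A_55_P1974830 it was -0.30 ± 0.11 (SE, n = 4 per genotype), with an unadjusted limma p of 0.0280 and an adjusted p of 0.229. The R6/2 arrays there read 105, 96.6, 90.6 and 109, against 118, 104, 136 and 138 in WT.

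Pde2a was read by 1 probe (A_55_P2105542, mm9 chr7:108661268-108661327), which holds the polyadenylation hexamer AATAAA. It had 48531, 47466, 46760.5 and 42592 in R6/2, against 54398, 58139, 42923 and 56647 in WT. WT 3 lay below 3 of the R6/2 arrays, and the genotypes overlapped. The difference was -0.19 ± 0.11 (SE, n = 4 per genotype; limma adjusted p = 0.429), with a 95% interval of -0.44 to 0.06.

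The Pde4 genes, whose cAMP-specific products are the targets of rolipram, held the largest positive difference among the members. At the brightest Pde4d probe (A_65_P12530, mm9 chr13:110745631-110745690) the signals were 443, 385, 394 and 464 in R6/2, against 347, 327, 272 and 351 in WT. Every R6/2 array was above every WT array. The difference was 0.38 ± 0.11 (SE, n = 4 per genotype), which did not pass the threshold (limma unadjusted p = 0.0071, adjusted p = 0.126).

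The 4 Pde4d probes differed along the gene. The 2 that lie 695 and 835 kb before the brightest one gave -0.13 and -0.09. The printed probe, 4.14 kb before it, gave 0.11, with 282, 283, 310.3 and 337 in R6/2 and 334, 264, 283 and 245 in WT. These differences were not tested against each other, and only the brightest of the 4 probes separated the genotypes.

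Pde4b had 4 probes, none called and all overlapping. Its brightest (A_65_P01319) had 1866, 1729.7, 1659 and 1857 in R6/2, against 1866, 1609.8, 1261 and 1933 in WT. The WT arrays spread more widely than the R6/2 arrays, with WT 3 lowest. The difference was 0.11 ± 0.14 (SE, n = 4 per genotype; limma adjusted p = 0.730; 95% interval -0.20 to 0.43), and it was -0.018 without WT 3. The printed probe, 1505 bases before it, gave 0.11 as well. The other differences were 0.24 at A_55_P2107542, which lies 1.90 kb before the printed probe, and -0.08 at A_52_P149801, which lies 350.1 kb before it.

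The Pde7 enzymes are cAMP-specific and insensitive to rolipram. Pde7b had 2 probes that start 1.67 kb apart, and 1 was called. At A_52_P329185 (mm9 chr10:20117931-20117990) the signals were 198, 182, 166 and 170.1 in R6/2, against 241, 288, 243 and 283 in WT. No R6/2 array reached the WT range. The difference was -0.56 ± 0.09 (SE, n = 4 per genotype; limma adjusted p = 0.0370), or 32.0% lower.

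The brighter Pde7b probe (A_55_P1959938) had 557, 466, 428 and 383 in R6/2, against 668, 680.4, 453 and 663 in WT. Here WT 3 lay within the R6/2 range, while the other WT arrays lay above it. The difference was -0.42 ± 0.17 (SE, n = 4 per genotype; limma adjusted p = 0.251), and -0.56 without WT 3 (adjusted p = 0.0889). Of the 8 fits with an array left out, that without WT 3 kept the call at A_52_P329185 (adjusted p = 0.0453), and the other 7 gave 0.0566 (without R6/2 1) to 0.103 (without R6/2 2).

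Pde7a, the closest relative of Pde7b, showed no called probe. Its brighter probe (A_51_P293269) had 358, 385, 261 and 285 in R6/2, against 331, 280.1, 257 and 329 in WT, a difference of 0.10 ± 0.15 (SE, n = 4 per genotype; limma adjusted p = 0.785). The dimmer probe (A_55_P2009213) gave -0.18, with signals of 21.6 to 32.7 in R6/2 and 22.8 to 37.2 in WT. The genotypes overlapped at both.

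Pde8b encodes a cAMP-specific enzyme of high affinity. Its brighter probe (A_55_P2017982) had 5200.1, 5209, 4689.8 and 4384 in R6/2, against 4966, 5740.3, 5345 and 5524 in WT. The upper R6/2 arrays lay inside the WT range. The difference was -0.15 ± 0.09 (SE, n = 4 per genotype; limma adjusted p = 0.421; 95% interval -0.34 to 0.05). The second probe (A_55_P2017987) gave -0.20, with signals of 59.1 to 95.6 in R6/2 and 64.4 to 131 in WT.

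In 3 of the 4 pairs of close relatives compared, the ratio differed between genotypes by a test that ignores slide rows. These 3 no longer passed after normexp background correction. For each pair the log2 ratio of the 2 signals was taken within each array at the brightest probes, and R6/2 and WT were compared by an exact two-sided permutation test. With 4 arrays against 4 the smallest p it can give is 0.0286, and p was adjusted over the 4 pairs. The ratio of Pde1b to Pde1c was 8.06, 8.20, 8.35 and 8.03 in R6/2, against 8.68, 9.11, 8.69 and 8.42 in WT. No R6/2 array reached the WT range, and the difference was -0.56 ± 0.16 (SE, n = 4 per genotype; exact permutation p = 0.0286, adjusted 0.0381).

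The ratio of Pde7b to Pde7a was 0.64, 0.27, 0.72 and 0.42 in R6/2, against 1.01, 1.28, 0.82 and 1.01 in WT. These values did not overlap either, with a difference of -0.52 ± 0.14 (SE, n = 4 per genotype; exact permutation p = 0.0286, adjusted 0.0381). It was -0.45 with the mean of each gene's probes, with the same adjusted p.

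The ratio of Pde4b to Pde4d was 2.08, 2.17, 2.07 and 2.00 in R6/2, against 2.43, 2.30, 2.21 and 2.46 in WT, a difference of -0.27 ± 0.07 (SE, n = 4 per genotype; exact permutation p = 0.0286, adjusted 0.0381). That difference belonged to the brightest probes: with the mean of all probes of each gene it was 0.027 (adjusted exact permutation p = 0.714). For Pde1b and Pde1a the difference was -0.37 ± 0.25 (SE, n = 4 per genotype; exact permutation p = 0.2), and -0.15 without R6/2 4, the array with the high Pde1a signal. With the mean of their probes it was -0.48 and passed (adjusted exact permutation p = 0.0381). After normexp background correction the 3 pairs that passed had an adjusted exact permutation p of 0.0762. A paired form of this test over the 4 slide rows cannot go below 0.125.

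**Figure D3:**
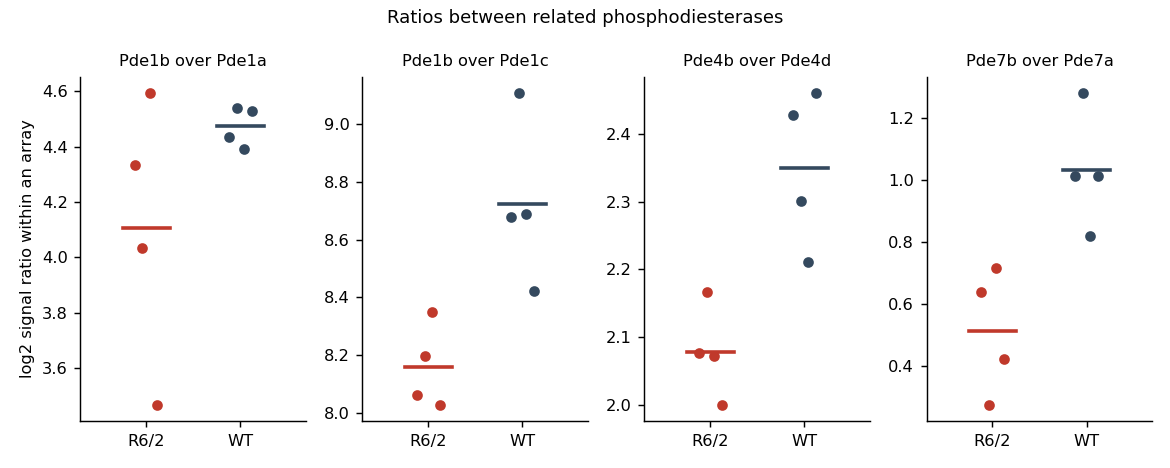
Log2 ratio of the signals of 2 related genes within each array, at their brightest probes, for 4 R6/2 and 4 WT arrays; points are arrays and lines are means, and each panel has its own axis that does not start at 0. Every R6/2 array lies below every WT array for Pde1b over Pde1c, Pde4b over Pde4d and Pde7b over Pde7a, while for Pde1b over Pde1a the R6/2 array with the highest ratio (4.59) is above all WT arrays.

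The other phosphodiesterase genes on the array gave no call. Of 14 genes with 24 probes, 13 genes and 18 probes were tested, with 0 probes called by limma and 3 at an unadjusted p under 0.05 (16.7%, near the share of all tested probes given above). Their median difference was -0.12 at the brightest probe, against -0.17 for the 10 members. Pde4a, a further rolipram target, had -0.33 (limma adjusted p = 0.0874), with all R6/2 arrays below all WT arrays at both of its probes. Pde3b, a cGMP-inhibited enzyme, had 0.25 (adjusted p = 0.222). All R6/2 arrays lay above all WT arrays at this Pde3b probe, but the genotypes overlapped at its dimmer one. Pde3a had -0.26, and the cAMP-specific Pde4c and Pde8a had -0.12 and -0.04. The cGMP enzymes Pde5a and Pde9a had -0.11 and -0.23, and the dual-substrate Pde11a had 0.12. For Pde5a the arrays ranged from 79.6 to 672 in R6/2 and from 66.6 to 637 in WT. Among genes with a Pde6 symbol, the differences were -0.25 for Pde6a, 0.17 for Pde6d and -0.11 for Pde6g, and Pde6b was not above background on any array. Pde6c and Pde6h were dim, well above background on 7 and 5 of the 8 arrays at their brightest probes, and their differences were -0.88 ± 0.40 and -0.86 ± 0.63 (SE, n = 4 per genotype). Pde6c ranged from 8.81 to 34.7 in R6/2 and from 18.9 to 35.5 in WT, and Pde6h from 6.36 to 36.2 in R6/2 and from 9.20 to 35.0 in WT, so that both overlapped.

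Other genes of cyclic nucleotide signalling were read from fixed lists, each gene at its brightest probe. Of the 10 phosphodiesterases 2 were called lower by this measure (Pde10a and Pde1b) and 0 higher, while of the 17822 genes with a tested probe 1.45% were called lower and 0.454% higher, and 18.9% had an unadjusted p under 0.05. Among the cyclases that make cAMP, 2 of 9 tested were called lower. Adcy5, the main adenylyl cyclase of striatal projection neurons, had 14194, 13513, 13454 and 9530.1 in R6/2, against 22537, 25291, 22923 and 22078 in WT, a difference of -0.89 (limma adjusted p = 0.0262, and 0.0509 with the block). Its 2 other tested probes were called as well. Adcy9 had -0.42 (adjusted p = 0.0315, and 0.0630 with the block). In both genes all R6/2 arrays were below all WT arrays.

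Of the guanylyl cyclases and Nos1, which supply cGMP and nitric oxide, 0 of 7 tested genes were called. An unadjusted p under 0.05 was found for 3, the smallest for Npr2 at 0.24 (limma adjusted p = 0.103). In this list 6 of the 7 differences were negative (median -0.11), among them Nos1 at -0.60 (limma adjusted p = 0.157) and Gucy1a1 at -0.26 (0.193). Of the effectors that cyclic nucleotides bind or activate, 0 of 17 were called and 3 had an unadjusted p under 0.05, the smallest for Hcn3 at 0.39 (adjusted p = 0.142). Among protein kinase A targets and inhibitors 2 of 8 were called lower. Arpp21, a protein kinase A substrate of striatal neurons, had -0.90 at its brightest probe (limma adjusted p = 0.0104). Its 2 other tested probes gave -0.51 and -0.29 and were not called (adjusted p = 0.182 and 0.158). Ppp1r1b, which encodes DARPP-32, had -0.73 (adjusted p = 0.0291). Both calls held with the block, with adjusted p values of 0.0482 and 0.0475. Of 11 genes whose products activate, anchor or bind phosphodiesterases, such as calmodulins and kinase-anchoring proteins, 0 were called and 1 had an unadjusted p under 0.05, Akap5 at -0.31 (adjusted p = 0.102). Over all these lists 4 genes were called. With an array left out the count was 4 without WT 3, but Adcy1 was gained there and Ppp1r1b lost. It was 3 without R6/2 4 (Adcy5, Arpp21 and Ppp1r1b) and 2 without R6/2 1 (Adcy5 and Arpp21). When any of the other 5 arrays was left out it was 1, Arpp21.

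**Figure D4:**
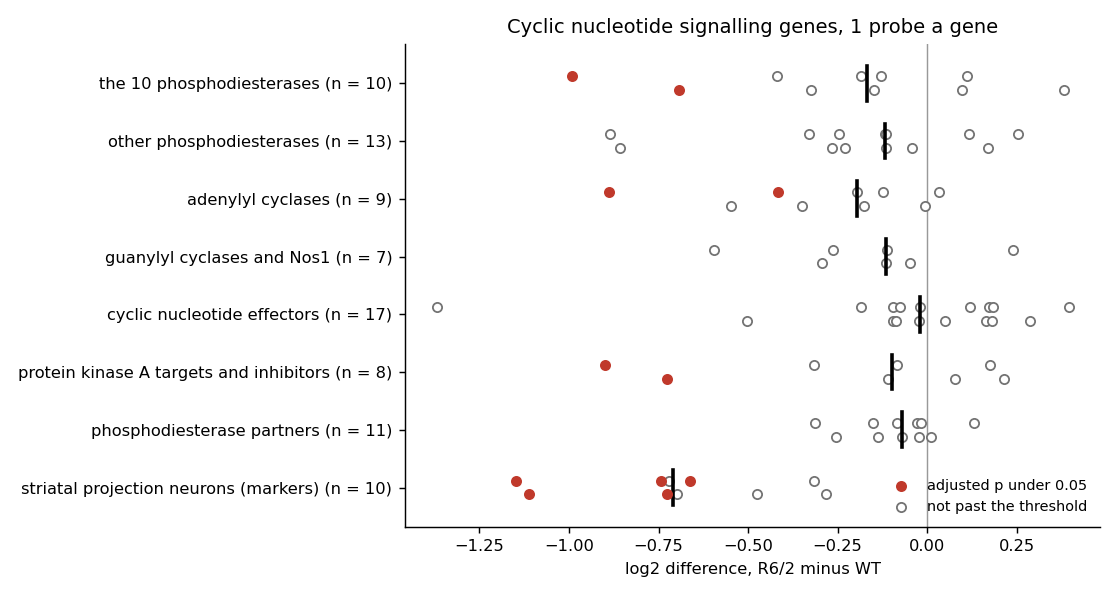
Log2 difference, R6/2 minus WT, of each tested gene at its brightest probe, by gene list. Filled points have an adjusted p under 0.05 by limma without the block, and black ticks are list medians. The median is -0.17 for the 10 phosphodiesterases, between -0.20 and -0.02 for the lists of other signalling genes, and -0.71 for the 10 markers of striatal projection neurons.

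Markers of striatal projection neurons, in which Pde10a is known to be most abundant, were lower as well. All 10 of these markers were above background on all 8 arrays, all 10 had negative differences, and 5 were called lower, with a median of -0.71. Their mean log2 level over the 75th percentile was 3.64 to 4.16 on R6/2 arrays and 4.45 to 4.73 on WT arrays. The 5 called were Penk (-1.11), Adora2a (-1.15), Rgs9 (-0.74), Ppp1r1b (-0.73) and Gpr6 (-0.66). Drd1 (-0.70) and Drd2 (-0.72) had adjusted p values of 0.0573 and 0.0615. With an array left out, 3 of the 10 were called without R6/2 1 (Penk, Adora2a and Gpr6). Without WT 3 the count was also 3, Penk, Gpr6 and Drd1, the last not called with all arrays. It was 2 without R6/2 4 (Penk and Ppp1r1b) and 1, Penk, without any of the other 5. Rgs9 was called in none of the 8 fits, and the medians were -0.76 to -0.61. Of 8 markers of all neurons 0 were called and 2 had an unadjusted p under 0.05, with a median of -0.16.

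Every marker of the other lists was also above background on all 8 arrays. The 6 cortical markers (median -0.50, level -0.55 to 0.65 in R6/2 and 0.27 to 0.77 in WT) and the 5 thalamic markers (median -0.59, level -1.14 to -0.98 in R6/2 and -0.96 to 0.58 in WT) had 0 calls, with 2 of each at an unadjusted p under 0.05. The thalamic median was -0.32 without WT 1, the array that read 675 for Slc17a6, against 106 to 216 on the other WT arrays. The cortical median was -0.28 without R6/2 3. Of 7 interneuron markers all had negative differences, 6 had an unadjusted p under 0.05 and 1 was called lower, Th (-0.64), with a median of -0.57. Their level was 1.17 to 1.399 on R6/2 arrays and 1.59 to 1.96 on WT arrays, without overlap, and the call of Th held only without WT 3 among the 8 fits with an array left out. Markers of astrocytes, oligodendrocytes and their precursors, microglia, endothelial and mural cells and choroid plexus had 0 calls, with 0 to 2 of each at an unadjusted p under 0.05 and medians from -0.17 to 0.09, that of choroid plexus lying between -0.52 and 0.22 with an array left out. The part of any of these in the phosphodiesterase differences was not tested.

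Among 15409 other genes with a standard symbol, the 5 whose profile over the 8 arrays was closest to that of Pde10a were Penk, Arpp21, Gpr83, Itga9 and Rgs11. Likeness was the root mean square difference of log2 signals centred on the WT mean, and it was 0.11, 0.12, 0.12, 0.12 and 0.13 for these genes. Within the family, Pde1b was closest to Pde10a at 0.24, followed by Pde7b at 0.42, and the other members were at 0.58 to 0.99. Centring on the WT mean leaves the genotype difference in the measure, so genes with a difference near that of Pde10a come out close. The 5 genes had differences from -1.11 (Penk) to -0.85 (Rgs11). The measure is a description over 8 arrays that share a slide.

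The sequence before the start sites of the 3 genes with called probes is shown because their signals were lower together. RefSeq start sites on GRCm38.p6 gave 28 windows of 250 bases for 9 of the 10 genes, 1 to 5 per gene, and which start was in use was not measured. The first window listed for each gene is printed 5′ to 3′ on the strand of the gene, with matches to the searched motifs, on either strand, in capitals.
Pde10a (GRCm38.p6, chr17:8801495-8801744, + strand): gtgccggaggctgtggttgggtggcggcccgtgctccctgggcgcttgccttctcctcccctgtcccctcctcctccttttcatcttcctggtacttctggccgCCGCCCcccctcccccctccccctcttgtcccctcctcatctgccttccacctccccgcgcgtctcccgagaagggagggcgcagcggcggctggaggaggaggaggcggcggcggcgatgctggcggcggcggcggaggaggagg
Pde1b (GRCm38.p6, chr15:103502784-103503033, + strand): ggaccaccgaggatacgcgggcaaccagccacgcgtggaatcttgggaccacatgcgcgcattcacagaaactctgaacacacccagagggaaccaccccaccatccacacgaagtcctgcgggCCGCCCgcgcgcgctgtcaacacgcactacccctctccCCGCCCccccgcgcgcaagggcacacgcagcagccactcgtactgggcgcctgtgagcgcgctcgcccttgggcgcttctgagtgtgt
Pde7b (GRCm38.p6, chr10:20548329-20548578, - strand): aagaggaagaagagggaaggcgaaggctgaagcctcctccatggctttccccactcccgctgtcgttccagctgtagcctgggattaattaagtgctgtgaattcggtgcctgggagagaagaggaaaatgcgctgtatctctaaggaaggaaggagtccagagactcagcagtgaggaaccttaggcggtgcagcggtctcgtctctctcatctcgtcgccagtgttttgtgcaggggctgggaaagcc

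The motifs searched, on both strands, were the cAMP response element TGACGTCA, its shorter form TGACG, which overlaps it, the GC box GGGCGG, the CCAAT box CCAAT and the TATA box TATAAA. The Pde10a window holds a GC box 146 bases before the start, and the Pde1b window holds GC boxes 126 and 88 bases before it. The other windows listed for Pde10a and Pde1b hold no GC box. Among genes without a called probe, a Pde2a window holds 3 GC boxes and a Pde8b window holds 4. The printed Pde7b window holds none of the 5 motifs. The GC box occurs in 32.7% of the 32851 windows of all genes, and in 5 of the 28 windows here. The full response element occurs in 1.55% of all windows and in 0 of the 28, and the shorter form in 17.8% of all and in 2 of the 28. The CCAAT box occurs in 33.85% of all windows and 7 of the 28, and the TATA box in 12.4% of all and 2 of the 28. A match is a description of these letters, and no match says only that they are not in this window.

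The authors' deposited table listed both bright Pde10a probes as down in R6/2, with folds of 1.97 and 1.96 and corrected p values of 0.0797 and 0.0650. In the authors' deposited table Pde1b was down 1.60-fold (corrected p = 0.0793) and the called Pde7b probe 1.46-fold (corrected p = 0.0838). Of the 144 probes with a corrected p under 0.05 in the authors' deposited table, 0 were of the 10 genes.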

How the data were processed

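Scanner files of 8 arrays were analysed, made with Agilent Feature Extraction 10.7.3.1 per the file headers. Each deposited file gives, as intensity per spot, a mean signal, a local background and a processed signal; the last was the main value here, and the first 2 served for normexp. The authors also deposited a series table of log2 values, which equal the log2 processed signal minus a constant per array (100% of values within 0.01), on a scale with column medians of -3.48 to -3.27 and no centring of genes. Its p-values, as deposited by the authors, come from an unpaired t-test with Benjamini-Hochberg correction per the file headers, and the fold in the deposited table is a ratio without sign, with its direction in a separate column.

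Here log2 processed signal minus each array's 75th percentile over non-control spots was used. Spots marked non-uniform or outlying were left out, and spots of a probe were averaged. Scaled signal is this value returned to the linear scale and multiplied by 460.0, the geometric mean of the percentiles. A probe was tested when well above background on at least 4 of 8 arrays. limma 3.58.1 in R 4.3.3 (lmFit and eBayes) gave differences and SEs, with p adjusted by Benjamini-Hochberg over 35121 probes. A gene was read at its brightest tested probe. The number of arrays limits the precision.

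Same-numbered arrays of the 2 genotypes share a slide row. Their deviations from the genotype means correlated at 0.222, 0.183, 0.356 and 0.133, against -0.190 to 0.047 for arrays of different number. The number was taken to pair them in the block, which was run as an alternative. Calls in the report come from the fit without the block unless the block is named. With the block, 0 member probes were called. The members and gene lists were chosen with earlier results of these data known. Every probe of the 10 genes was named, together with up to 4 called genes of each list (or the gene of smallest p), the other phosphodiesterases, the 5 profiles most like Pde10a and the markers given beside a result. Probe positions are on mm9 per the file headers.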

Additional observations from a re-analysis of the deposited data

Results flagged for a closer look

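In each genotype the array farthest from the others was compared with them at 43 probes of phosphodiesterase and named signalling genes. Of 86 groups of 4 arrays, 6 had an array that stood apart, its gap to the nearest other array taking up more of the group's range than Dixon's 95% critical value. That is 6.98% of the groups, and chance gives about 1 in 20.

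R6/2 4 was lowest at the Pde10a probe A_55_P2090484, at 3062 against 3921 to 4104 on the other R6/2 arrays (gap 0.845 of the range). It was also lowest of the R6/2 arrays for Adcy5, at 9530.1 against 13454 to 14194 (0.866). R6/2 1 was lowest at the dimmer Pde1a probe A_55_P2145441, at 656 against 713 to 715 (0.970). WT 3 was lowest of the WT arrays at the brighter Pde7b probe A_55_P1959938, at 453 against 663 to 680.4 (0.936), and highest at the Pde4d probe A_55_P1986461, at 219 against 177 to 179 (0.931). WT 4 was lowest for Pde6h at A_55_P2001518, at 9.20 against 33.1 to 35.0 (0.957).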

How the results depend on the processing

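Each tested probe was refitted under 10 other settings and 8 times with an array left out. The 4 called differences kept their sign in all 18. The count of called member probes, 4 in the report, was also 4 with normexp, quantile normalization, the filter on all 8 arrays, array weights, the variance trend and the authors' log2 values. It was 1 with median scaling, 0 with no filter on dim probes, 0 with the replicate block and 1 by the methods' t-test on the same values, and 0 to 4 with an array left out (4 only without WT 3). The count of genes called at the brightest probe, 2 in the report, was 0 with median scaling, with no filter, with the replicate block and by the methods' t-test, and 0 to 2 with an array left out. Over all probes, 529 were called in the report, 229 with median scaling, 110 with no filter on dim probes, 283 with the block, 264 by the methods' t-test and 100 to 505 with an array left out. Normexp called 981, array weights 1114 and the variance trend 1024.

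Signs turned at small differences. The Pde1c probe A_52_P108243 went to 0.020 with quantile normalization and 0.031 with median scaling, and lay between -0.12 and 0.030 with an array left out. The Pde4b probe A_52_P149801 went to 0.0013 with median scaling, and the Pde4b probe A_65_P01319 lay between -0.018 and 0.19 with an array left out. The Pde4b to Pde4d ratio difference was 0.027 with the mean of each gene's probes, and Pde1b to Pde1a was -0.48 and passed. With normexp, Pde1b to Pde1c (-0.61), Pde4b to Pde4d (-0.22) and Pde7b to Pde7a (-0.41) no longer passed. The causes were not tested. Leaving out an array was added after seeing the data for the ratios and the marker lists, and all 4 ratio differences stayed negative. The count of other signalling genes called, 4 in the report, was 3 with the replicate block (Arpp21 and Ppp1r1b kept, Adcy1 gained, limma adjusted p = 0.0482). Median scaling left 1, and so did no filter on dim probes, Arpp21 in both. By the methods' t-test it was 3 (Adcy9 and Arpp21 kept, Npr2 gained). All 4 were kept with normexp (6 called), quantile normalization, the filter on all 8 arrays, array weights, the variance trend and the authors' log2 values. The variance trend also called Adcy1, Akap5 and Pde4a. With an array left out the count was 1 to 4, and the 4 without WT 3 held Adcy1 in place of Ppp1r1b.

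Slide or scan as a block was not run, since all arrays share 1 slide and 1 scan.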
